A study of Rattus norvegicus with 2 samples.

Results

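Vegfa, Bhlhe40, Adm, Ankrd37, Bnip3, Bnip3l, Ndrg1, Ddit4, Hif1a and Car9 are genes of the hypoxia-inducible factor (HIF) pathway that do not encode glycolytic enzymes. They were taken as a list of 10 symbols, each with 1 named probe, out of 15037 named genes on a whole-transcript rat array. The list was drawn up with earlier results of the same comparison in view, so the differences between the arrays are a description and carry no test. The cells were cultured epidermal keratinocytes from newborn rats, grown with 10% serum and 0.4 µg/mL hydrocortisone. The siTet2/3 culture was transfected with siRNAs against Tet2 and Tet3 at 1 µM each. The control culture is titled NC+VC and described as non-treated. The labels do not spell out NC, nor whether a control siRNA, only the lipid reagent or neither was given. Per the protocols, both cultures were given vitamin C for 12 h, beginning 24 h after transfection, and no culture without vitamin C was analysed here. There was 1 array per group, so every "higher" and "lower" refers to this single pair of arrays, without replicates to check it. Tet2 and Tet3 had 0 named probes, and the size of the knockdown was not analysed here.

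HIF is a transcription factor made of an oxygen-regulated alpha subunit, such as the product of Hif1a, and the constant beta subunit encoded by Arnt. In oxygen, prolyl hydroxylases of the Egln family mark the alpha subunit for destruction through the von Hippel-Lindau protein, and an asparaginyl hydroxylase, Hif1an, blocks its binding to coactivators. These hydroxylases use oxygen, iron and 2-oxoglutarate and are supported by vitamin C, as are the TET enzymes, which oxidise methylated cytosine in DNA. HIF binds a short core motif that contains a CpG, and methylation of that CpG is known to hinder its binding. In skin, HIF activity is known for its part in the supply of growth factors for vessels during wound healing.

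Values are log2 signals on the scale the authors deposited, which ended at 19.93. Levels of different probes are not comparable with one another, so each gene is compared only with itself. The background floor was 5.04 log2 units, the 95th percentile of 1206 chemoreceptor genes by their higher value, and 8103 genes passed it on at least 1 array. A stricter gauge, the 95th percentile of 1153 negative-control probes, was 8.31 log2 units. The labelled cell type fitted its markers as far as they were measured: 7 of 7 keratinocyte markers with a probe lay above the floor on both arrays, among them Krt14 (18.70 log2 units on the siTet2/3 array and 18.54 on the control array) and Perp (18.86 and 18.79). Fibroblast markers (0 of 7) and melanocyte markers (0 of 4) did not pass the floor. Of 6 endothelial markers only Tek passed it (9.25 and 9.66 log2 units), while Pecam1, Cdh5, Kdr, Tie1 and Vwf lay below it on both arrays. Of 5 immune markers only Cd68 passed (5.24 and 5.52), and of 4 smooth muscle and pericyte markers only Acta2 (7.93 and 8.03). The highest fibroblast marker was at 4.96 log2 units on the siTet2/3 array and 4.55 on the control array. In cultures such as these, fewer cells that express a gene and less RNA per cell cannot be told apart.

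The HIF pathway genes above the floor differed from one another in the size and sign of their differences. On the siTet2/3 array the angiogenic factor gene Vegfa was 2.05-fold lower, the repressor gene Bhlhe40 1.94-fold lower and the mitophagy receptor gene Bnip3 1.52-fold lower. Bnip3l and Ndrg1 were lower by less than 1.5-fold, and Adm, Ddit4 and Hif1a were higher by less than 1.5-fold. The log2 differences of Adm (0.36), Ddit4 (0.26) and Hif1a (0.10) were smaller than the robust SD among the 200 genes nearest in level. Those SDs were 0.40, 0.39 and 0.32, so a rise of these genes is not established. Car9 and Ankrd37 were below the floor on both arrays and have no usable difference. Of the 10 genes, 8 passed the floor, and these 8 passed it on both arrays. At least 1.5-fold lower were 3 of the 8, and at least 1.5-fold higher were 0. Over all 8103 genes above the floor the same limits were passed by 13.2% lower and 8.63% higher, and because the genes were chosen on this contrast nothing is read from that difference in shares. The lower genes were 2 of 8 after centring on the median difference (11.1% lower and 10.4% higher over all genes), 2 of 8 once a loess trend on level was taken out (11.2% and 10.2%), and 2 of 7 with the negative-control gauge as the floor (11.0% and 6.01%). At 2-fold, Vegfa alone was lower (3.05% and 1.81%). No gene of the 8 was counted as higher under these settings. The median difference of the 8 was -0.30 log2 units, against -0.05 over all genes above the floor.

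**Figure D1:**
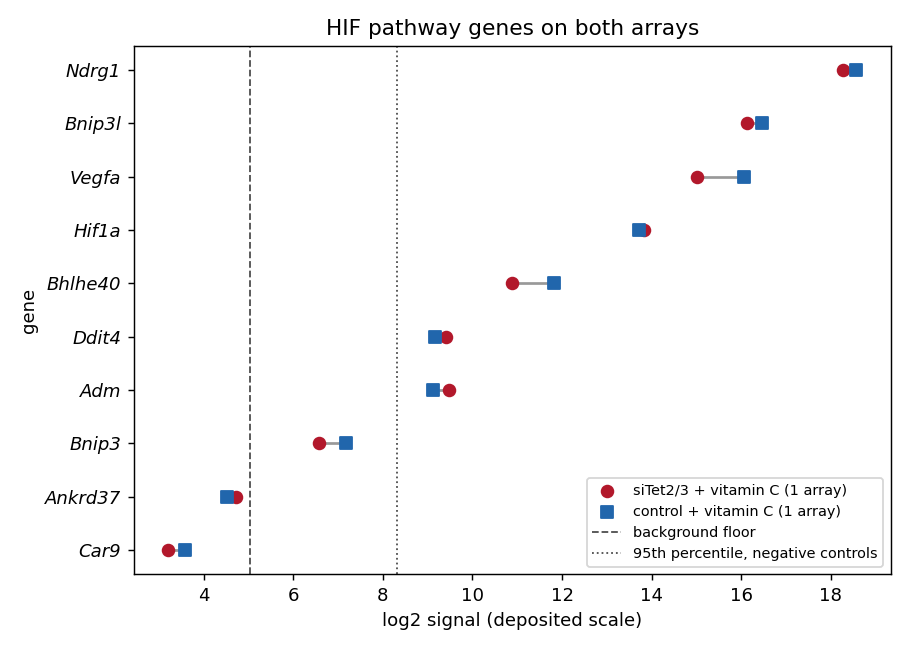
log2 signal of the 10 HIF pathway genes (x axis, deposited scale) on the siTet2/3 array (red circles) and the control array (blue squares), 1 array each. The dashed line is the background floor of 5.04 and the dotted line the negative-control gauge of 8.31; Vegfa and Bhlhe40 show the widest gaps, and Ankrd37 and Car9 lie left of the floor.

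Promoter windows of 300 bases, 250 before and 50 after the transcription start, were available from RefSeq (build GRCr8) for 8 of the 10 genes, all except Bnip3l and Ndrg1; Vegfa had a window for each of 2 starts. RefSeq gives the Adm, Hif1a and Ankrd37 genes an extent that reaches upstream of the starts used, so each of these windows is tied to 1 start, and positions in it depend on that choice. Both forms of the HIF core motif, ACGTG and GCGTG, were searched on both strands. The sequences below are those of the 3 genes that were at least 1.5-fold lower, of Ddit4, which was not lower, and of Ankrd37, which held the most matches; they run 5′ to 3′ along the gene's strand, and capitals mark the core motif on either strand. Positions count from the transcription start, which is base 1.
Vegfa, first start (chr9:22452604-22452903, plus strand): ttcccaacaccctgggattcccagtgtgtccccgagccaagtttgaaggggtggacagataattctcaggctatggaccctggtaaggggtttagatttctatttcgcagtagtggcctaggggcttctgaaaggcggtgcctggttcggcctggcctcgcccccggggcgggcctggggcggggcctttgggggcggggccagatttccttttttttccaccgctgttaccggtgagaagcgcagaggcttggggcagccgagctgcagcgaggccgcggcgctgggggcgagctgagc
Bhlhe40 (chr4:143174200-143174499, plus strand): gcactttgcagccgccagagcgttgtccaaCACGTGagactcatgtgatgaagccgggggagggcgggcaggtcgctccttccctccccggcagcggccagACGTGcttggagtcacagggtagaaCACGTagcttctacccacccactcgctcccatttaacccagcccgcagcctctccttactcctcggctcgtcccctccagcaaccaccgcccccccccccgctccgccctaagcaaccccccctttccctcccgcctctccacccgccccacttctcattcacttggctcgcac
Bnip3 (chr1:203154913-203155212, minus strand): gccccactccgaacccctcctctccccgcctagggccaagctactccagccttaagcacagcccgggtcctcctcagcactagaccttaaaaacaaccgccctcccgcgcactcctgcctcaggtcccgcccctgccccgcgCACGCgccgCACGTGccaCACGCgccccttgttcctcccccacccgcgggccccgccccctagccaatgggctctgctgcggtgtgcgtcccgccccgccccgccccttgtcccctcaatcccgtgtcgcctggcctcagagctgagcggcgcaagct
Ddit4 (chr20:28436988-28437287, minus strand): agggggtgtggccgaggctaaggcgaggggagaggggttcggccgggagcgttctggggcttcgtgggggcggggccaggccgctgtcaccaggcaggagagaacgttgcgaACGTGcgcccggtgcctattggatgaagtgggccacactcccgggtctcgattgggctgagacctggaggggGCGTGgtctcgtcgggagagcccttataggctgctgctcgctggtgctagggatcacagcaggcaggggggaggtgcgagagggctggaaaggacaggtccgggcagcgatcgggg
Ankrd37 (chr16:53001257-53001556, plus strand): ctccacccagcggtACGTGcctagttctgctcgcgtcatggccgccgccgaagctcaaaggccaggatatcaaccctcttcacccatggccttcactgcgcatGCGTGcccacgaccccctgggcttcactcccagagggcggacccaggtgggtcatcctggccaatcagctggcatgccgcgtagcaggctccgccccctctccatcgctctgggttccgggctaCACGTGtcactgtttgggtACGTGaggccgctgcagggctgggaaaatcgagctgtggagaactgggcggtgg

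The core motif occurred in the windows of 6 genes and was missing from those of Adm and from both windows of Vegfa. The Vegfa windows hold only the stretch next to each start, so nothing follows from them about HIF binding elsewhere at that gene. Bhlhe40 held 4 matches, at 3 places: a palindromic CACGTG at -220 to -215, which counts once on each strand, and single matches at -149 to -145 and -124 to -120. Bnip3 also held 4, crowded between -108 and -86: a CACGTG at -99 to -94 and GCGTG on the opposite strand on either side of it. Ankrd37 had 5 matches, with a CACGTG at -23 to -18 and a match at -4 to 1 that spans the start used. Ddit4 had 2, at -138 to -134 and -66 to -62. Hif1a had 3, including a CACGTG at -229 to -224, and Car9 had 1, at 2 to 6. The CACGTG form, which is also the E-box bound by BHLHE40 and by CLOCK with BMAL1, was thus present in Bhlhe40, Bnip3, Ankrd37 and Hif1a, 4 of the 8 genes with a window.

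Either form of the motif was present in 41.6% of all 33469 promoter windows, ACGTG in 19.3% and CACGTG in 6.42%. Most of these HIF pathway windows were rich in CpG: Bnip3 had 27 CpGs, Hif1a 31, Ddit4 23, Ankrd37 21, Bhlhe40 20 and the first Vegfa window 18, against a median of 7 over all windows. The second Vegfa window had 9, Adm 8 and Car9 6. Since the motif itself contains a CpG, the share depends on CpG content: among the 9194 windows with at least 18 CpGs, 71.6% held either form, 28.0% ACGTG and 11.0% CACGTG. The motif was present in the windows of Bhlhe40 and Bnip3, which were at least 1.5-fold lower, of Ddit4 and Hif1a, which were within 1.5-fold, and of Ankrd37 and Car9, which were below the floor. It was missing from the windows of Vegfa, which was lower, and of Adm, which was within 1.5-fold. Any relation between the motif and these differences was not tested.

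**Figure D2:**
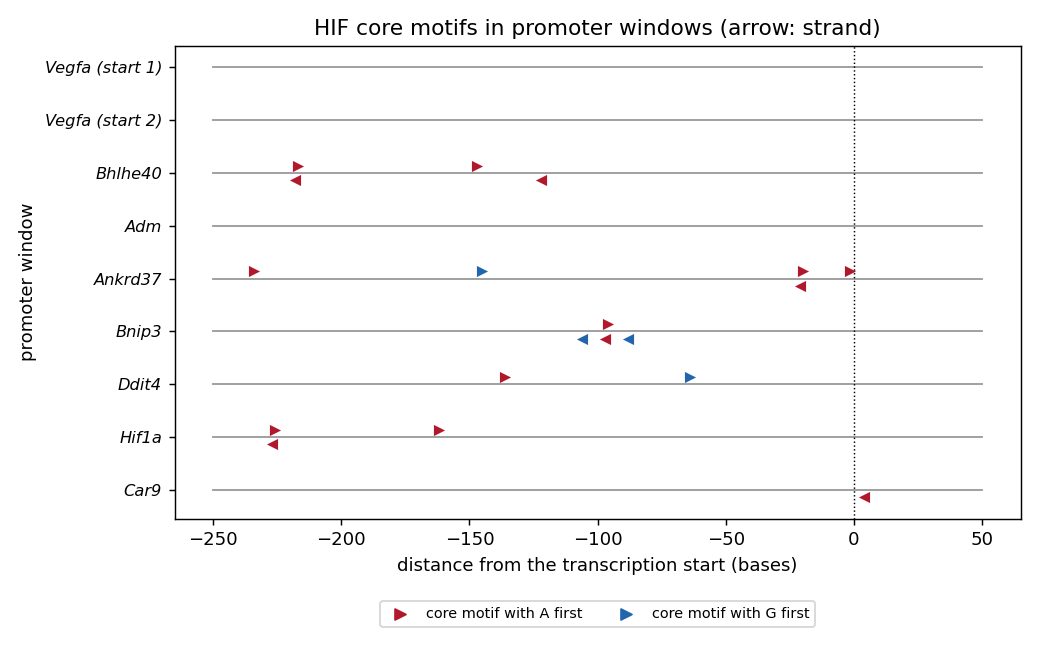
Positions of the HIF core motifs (x axis, distance from the transcription start in bases) in 9 promoter windows of 8 genes; red arrows are the form beginning with A, blue arrows the form beginning with G, and the arrow gives the strand. Bhlhe40, Bnip3 and Ankrd37 carry 4, 4 and 5 matches, and the windows of Vegfa and Adm none.

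Among the secreted factors, Vegfa and Adm differed in opposite directions. Vegfa, which encodes the main growth factor for blood vessels made by keratinocytes, read 15.02 log2 units on the siTet2/3 array and 16.06 on the control array, a difference of -1.04. It stood at 48.8% of the control signal. Of the 8103 genes above the floor, 208, or 2.57%, were at least as much lower. The 200 genes nearest in level had a robust SD of the difference of 0.30, and 14 of them were at least 1.5-fold lower. Vegfa lay more than 3 of these SDs below 0, but it was chosen on this contrast, so no rarity is read from that. The robust SD is a spread across genes and not across replicates. Adm encodes adrenomedullin, a peptide that widens vessels. It read 9.47 log2 units on the siTet2/3 array and 9.11 on the control array, a difference of 0.36, which was smaller than the robust SD of 0.40 among genes of its level.

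The other growth factor genes of the VEGF family that passed the floor, Vegfb and Pgf, did not share the size of the Vegfa difference. Vegfb read 7.43 log2 units on the siTet2/3 array and 7.64 on the control array, and Pgf, which encodes placental growth factor, 5.61 and 6.06. Vegfc (3.77 and 4.78) and Vegfd (4.84 and 4.81) were below the floor on both arrays, so their differences cannot be set beside that of Vegfa. The VEGF receptor genes Flt1, Kdr and Flt4, which are typical of endothelium, were also below it. Of the co-receptor genes, Nrp2 read 10.32 and 10.05, and Nrp1 passed the floor on the siTet2/3 array alone (5.47 and 4.71), at least 1.35-fold higher. Of the 5 genes of this family that passed the floor, 1 was at least 1.5-fold lower as measured, Vegfa, and 1 higher, Nrp1. Over all genes above the floor the shares were 13.2% lower and 8.63% higher. With values below the floor set equal to it, 1 of the 5 was lower and 0 higher. Vegfa was chosen on this contrast, so nothing is read from these counts.

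For adrenomedullin, the receptor gene Calcrl (4.37 log2 units on the siTet2/3 array and 3.92 on the control array) and its partner genes Ramp2 (2.89 and 3.25) and Ramp3 (2.68 and 2.65) were below the floor. Pam, which encodes the enzyme that amidates peptide hormones such as adrenomedullin, read 10.90 and 10.39, and Ramp1 5.76 and 5.45. Adm, Pam and Ramp1, the 3 of 8 genes of this system above the floor, were all higher on the siTet2/3 array, by 0.31 to 0.51 log2 units. For comparison, 4458 of all 8103 genes had a difference below 0. The 1.5-fold limit was passed by 0 of the 3, beside 13.2% (lower) and 8.63% (higher) for all genes. Adm was chosen on this contrast and Ramp1 lay close to the floor of 5.04, so no joint rise of the system is read from these 3 genes.

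Bhlhe40 encodes a basic helix-loop-helix repressor that HIF induces and that dampens transcription by CLOCK and BMAL1. It read 10.88 log2 units on the siTet2/3 array and 11.83 on the control array, a difference of -0.95, and stood at 51.6% of the control signal. At least as large a decrease was seen for 303 genes, or 3.74% of those above the floor. The robust SD among the 200 genes nearest in level was 0.33, and 14 of them were at least 1.5-fold lower. The 10 clock genes that passed the floor included 2 that were 1.5-fold lower or more and 0 higher, which is within 1 gene of the 13.2% and 8.63% of all genes; the second was Nr1d1, which encodes the nuclear receptor repressor REV-ERB alpha (9.88 log2 units on the siTet2/3 array and 10.70 on the control array). The activator genes Clock (10.47 and 10.18) and Bmal1 (9.52 and 9.15) differed by 0.30 and 0.37, and the repressor genes Per1 (10.15 and 10.02) and Per2 (5.34 and 5.38) by 0.12 and -0.04. The median of the 10 was -0.01.

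**Figure D3:**
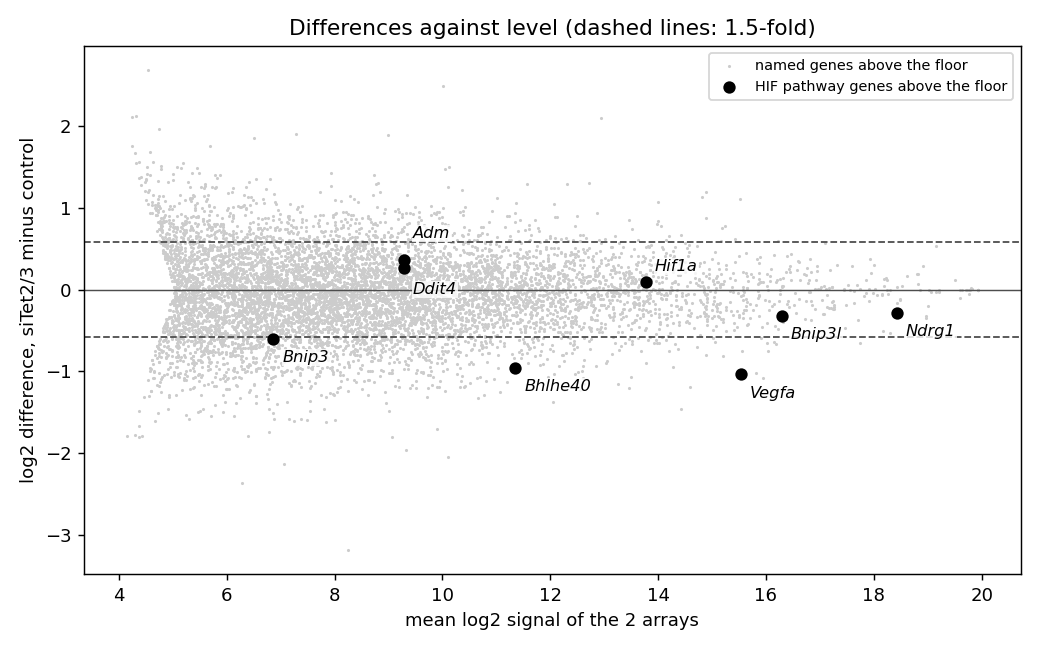
log2 difference between the siTet2/3 and the control array (y axis) against the mean log2 signal (x axis) for 8103 genes above the floor (grey) and the 8 HIF pathway genes among them (black). The cloud narrows with level; Vegfa and Bhlhe40 lie at its lower edge, Bnip3 close to the 1.5-fold line, and the other 5 genes between the dashed lines.

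Bnip3 and Bnip3l encode related receptors of the outer mitochondrial membrane that recruit LC3 proteins and so direct mitochondria to autophagy. Both were lower on the siTet2/3 array. Bnip3 read 6.57 log2 units on the siTet2/3 array and 7.17 on the control array, a difference of -0.60. Centred on the median difference it was -0.55, and without the loess trend -0.53, both short of 1.5-fold, and the gene lay below the negative-control gauge on both arrays. The robust SD among genes of its level was 0.51, and 1018 genes, or 12.6%, were at least as much lower. Bnip3l read 16.14 and 16.46, a difference of -0.32, beside a robust SD of 0.29 at its level.

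Among 13 mitophagy genes above the floor, Bnip3 and Bnip3l included, 11 had a difference below 0, beside 4458 of 8103 for all genes. At least 1.5-fold lower were 3 (23.1%, beside 13.2%) and higher 0 (beside 8.63%). After centring 2 of the 13 were lower, beside 11.1%, which is within 1 gene of that share. With the negative-control gauge as the floor, 1 of 9 was lower (11.1%, beside 11.0%). Bnip3 and Bnip3l, chosen on this contrast, are among the 11, and Bnip3 is among the 3, so nothing is read from these counts. Map1lc3b, which encodes an LC3 protein of the autophagosome membrane, read 13.80 log2 units on the siTet2/3 array and 14.75 on the control array, a difference of -0.95. Fundc1, another mitophagy receptor gene linked to hypoxia, read 5.71 and 6.51. The LC3 relatives Gabarap (15.23 and 15.54) and Gabarapl1 (9.62 and 9.64) and the cargo receptor gene Sqstm1 (14.19 and 14.51) differed by at most 0.32. Pink1, which acts in the separate ubiquitin-dependent route, was higher, at 5.53 and 5.15. The list had a median of -0.22, against -0.05 over all genes above the floor.

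Ddit4 and Ndrg1 respond to hypoxia and to other stresses. Ddit4 encodes REDD1, which restrains the growth kinase complex mTORC1 through the TSC proteins. It read 9.41 log2 units on the siTet2/3 array and 9.15 on the control array, a difference of 0.26 beside a robust SD of 0.39 at its level. Ndrg1, whose product is phosphorylated by SGK1, read 18.28 and 18.57, a difference of -0.29. Its signals lay 1.65 and 1.36 log2 units under the end of the scale. The 200 nearest genes had mean levels from 15.65 to 19.93 and took in genes such as Gapdh, with the same value on both arrays. Their robust SD of 0.21 is therefore not a spread at the level of Ndrg1 alone. Of these 200 genes, 8 were at least 1.5-fold lower.

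The relatives of both genes differed in both directions. Among 14 genes of the mTORC1 list above the floor, Ddit4 included, 7 were below 0, beside 4458 of 8103 for all genes. The median was 0.01, beside -0.05 over all genes. At least 1.5-fold lower was 1 (7.14%, beside 13.2%) and higher 1 (7.14%, beside 8.63%). Ddit4 was chosen on this contrast, so nothing is read from these counts. Sesn3, which encodes a sestrin that restrains mTORC1, was 2.81-fold higher (10.87 log2 units on the siTet2/3 array and 9.38 on the control array). Eif4ebp1, which encodes a translational repressor controlled by mTORC1, was 1.55-fold lower (12.12 and 12.75), though not past 1.5-fold after centring. Tsc1 (6.45 and 6.98) and Tsc2 (8.71 and 8.78) were lower by 0.53 and 0.08. Of the other NDRG genes, Ndrg3 read 9.39 and 9.90, Ndrg2 6.10 and 5.91, and Ndrg4 passed the floor on the siTet2/3 array alone, at least 1.47-fold higher. Sgk1 read 11.96 and 11.92.

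Car9 and Ankrd37, which are strongly induced by HIF in human cells, gave no signal above the floor. Car9 encodes a cell-surface carbonic anhydrase that regulates acidity outside the cell, and read 3.20 log2 units on the siTet2/3 array and 3.59 on the control array. Ankrd37 encodes a small ankyrin-repeat protein, and read 4.72 and 4.53. Both lay below 5.04 on each array, so neither a fold nor a direction is given for them. Of 15 carbonic anhydrase genes with a probe, 3 passed the floor. The other hypoxia-responsive surface enzyme gene, Car12, read 14.76 on the siTet2/3 array and 15.26 on the control array, a difference of -0.50. The cytosolic enzyme gene Car13 was 2.43-fold higher (12.21 and 10.92) and the mitochondrial enzyme gene Car5b 1.59-fold higher (9.26 and 8.59).

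Hif1a itself read 13.82 log2 units on the siTet2/3 array and 13.73 on the control array, a difference of 0.10, and the robust SD at its level was 0.32. Its transcript level does not report the amount of HIF protein, which was not measured here. The beta subunit gene Arnt read 10.63 and 10.36 and its relative Arnt2 6.26 and 5.49, which is 1.71-fold higher. Epas1 (3.87 and 3.45) and Hif3a (4.20 and 3.45), the other alpha subunit genes, were below the floor. Among genes that restrain HIF, Hif1an was 1.53-fold lower (8.72 log2 units on the siTet2/3 array and 9.34 on the control array) but 0.56 log2 units lower and short of 1.5-fold after centring. Vhl read 8.87 and 9.36, and Egln3, a prolyl hydroxylase gene that HIF itself induces, 14.77 and 15.10. Egln2 read 6.33 and 6.26. Cited2, which encodes a competitor for HIF coactivators, read 8.07 and 8.39, and the coactivator gene Crebbp 12.92 and 12.44. Over the 9 genes of this list above the floor, 1 was at least 1.5-fold lower, Hif1an, and 1 higher, Arnt2, within 1 gene of the shares of all genes, and the median was 0.07.

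**Figure D4:**
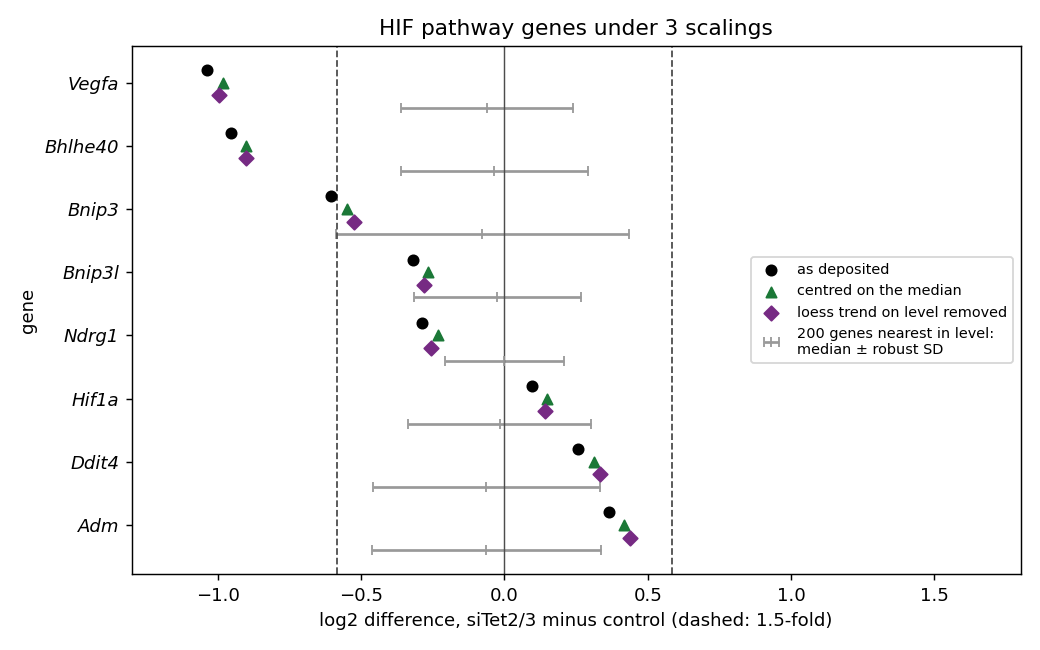
log2 difference between the siTet2/3 and the control array (x axis) of the 8 HIF pathway genes above the floor, as deposited (black circles), centred on the median (green triangles) and with a trend on level removed (purple diamonds); grey bars give the median ± robust SD of the 200 genes nearest in level. Vegfa and Bhlhe40 stay left of the 1.5-fold line under these 3 scalings, and Bnip3 crosses it.

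A wider list of HIF targets outside glycolysis held 56 further genes, of which 47 had a named probe and 38 passed the floor. Of these 38, as measured, 10 were at least 1.5-fold lower (26.3%, beside 13.2% of all genes above the floor) and 3 were higher (7.89%, beside 8.63%). The median was -0.24 log2 units. Setting values below the floor equal to it left 10 lower and 2 higher (5.26%), beside 11.8% and 6.96% of all genes. After centring the counts were 10 and 3, beside 11.1% lower and 10.4% higher over all genes. At 2-fold, 1 of 38 was lower (2.63%), beside 3.05% of all genes, too few genes to show an excess or its absence. The list was chosen with earlier results of these data known, so nothing is read from the differences in shares at either limit. Ampd3, an AMP deaminase gene, was 2.29-fold lower (8.91 log2 units on the siTet2/3 array and 10.11 on the control array). Ak4, a mitochondrial adenylate kinase gene, was 1.83-fold lower (7.26 and 8.14). Loxl2, a matrix cross-linking oxidase gene, read 4.94, under the floor, on the siTet2/3 array and 5.83 on the control array, a decrease of at least 1.73-fold. The remaining 7 lower genes, named after their values were seen, were Ccng2, Kdm4b, Stc2, Mxi1, Klf10, Kdm4c and Kdm3a, with differences from -0.86 to -0.68. Of these, Ccng2 (6.25 and 7.11) and Kdm4b (5.24 and 6.07) lay below the negative-control gauge on both arrays. The siTet2/3 value of Kdm4b was just above the floor. Kdm3a, Kdm4b and Kdm4c encode histone demethylases that use the same cofactors as the TET enzymes. Other genes of the list whose enzymes use these cofactors were within 1.5-fold: P4ha1 (0.02), P4ha2 (0.41), Plod1 (-0.28), Plod2 (0.09), Jmjd6 (0.16) and Egln3 (-0.33). The nitric oxide synthase gene Nos2 was 1.74-fold higher (6.33 and 5.53), the vasoconstrictor gene Edn1 1.69-fold higher (7.60 and 6.84) and Vldlr at least 1.46-fold higher.

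The glycolysis genes, many of them HIF targets as well, counted 2 of 19 as 1.5-fold lower (10.5%) and 1 as higher (5.26%), no more than the 13.2% and 8.63% of all genes, and a median of -0.17. Pfkfb3 (5.18 log2 units on the siTet2/3 array and 6.68 on the control array) and Pfkfb4 (7.51 and 8.26), which encode enzymes that make an activator of phosphofructokinase, were lower, and the phosphofructokinase gene Pfkm was higher (7.66 and 6.91). The glucose transporter gene Slc2a1 read 18.35 and 18.51, and the hexokinase gene Hk2 13.41 and 13.87. Ldha, Eno1, Gapdh and Pkm lay between 19.14 and 19.76 on both arrays, near the end of the scale, where differences cannot show fully.

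Vegfa and Ddit4 are known to respond also to the integrated stress response, and Ddit4 to glucocorticoids such as the hydrocortisone in the medium. The integrated stress response list had 21 genes that passed the floor; as measured, 6 of them (28.6%) were at least 1.5-fold lower and 2 (9.52%) higher, beside 13.2% and 8.63% of all genes. Setting values below the floor equal to it left 5 lower (23.8%) and 1 higher (4.76%), beside 11.8% and 6.96% of all genes. After centring there were 5 (23.8%) and 2 (9.52%), beside 11.1% and 10.4%. With the negative-control gauge as the floor, 2 of 15 were lower (13.3%) and 1 higher (6.67%), beside 11.0% and 6.01%. At 2-fold, 1 of 21 was lower (4.76%) and 0 higher, beside 3.05% and 1.81%. The list was chosen with earlier results known, so nothing is read from these shares. A difference below 0 was found for 17 of the 21, beside 4458 of all 8103 genes, and the median was -0.41. Its central factor gene Atf4 read 15.24 log2 units on the siTet2/3 array and 15.70 on the control array. Trib3 was 1.75-fold lower (5.75 and 6.56), Chac1 1.67-fold lower (6.46 and 7.20), and Cebpb at least 1.23-fold lower, with a siTet2/3 value under the floor. The higher genes were Cth (8.94 and 8.06) and Vldlr. The glucocorticoid list was near the shares of all genes, with 1 of 10 genes lower, the phosphatase gene Dusp1 (14.00 and 14.72), and 1 higher, Tsc22d3, which encodes the glucocorticoid-induced leucine zipper (9.30 and 8.29); its median was 0.02. The part that either response had in the values of Vegfa and Ddit4 was not tested.

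**Figure D5:**
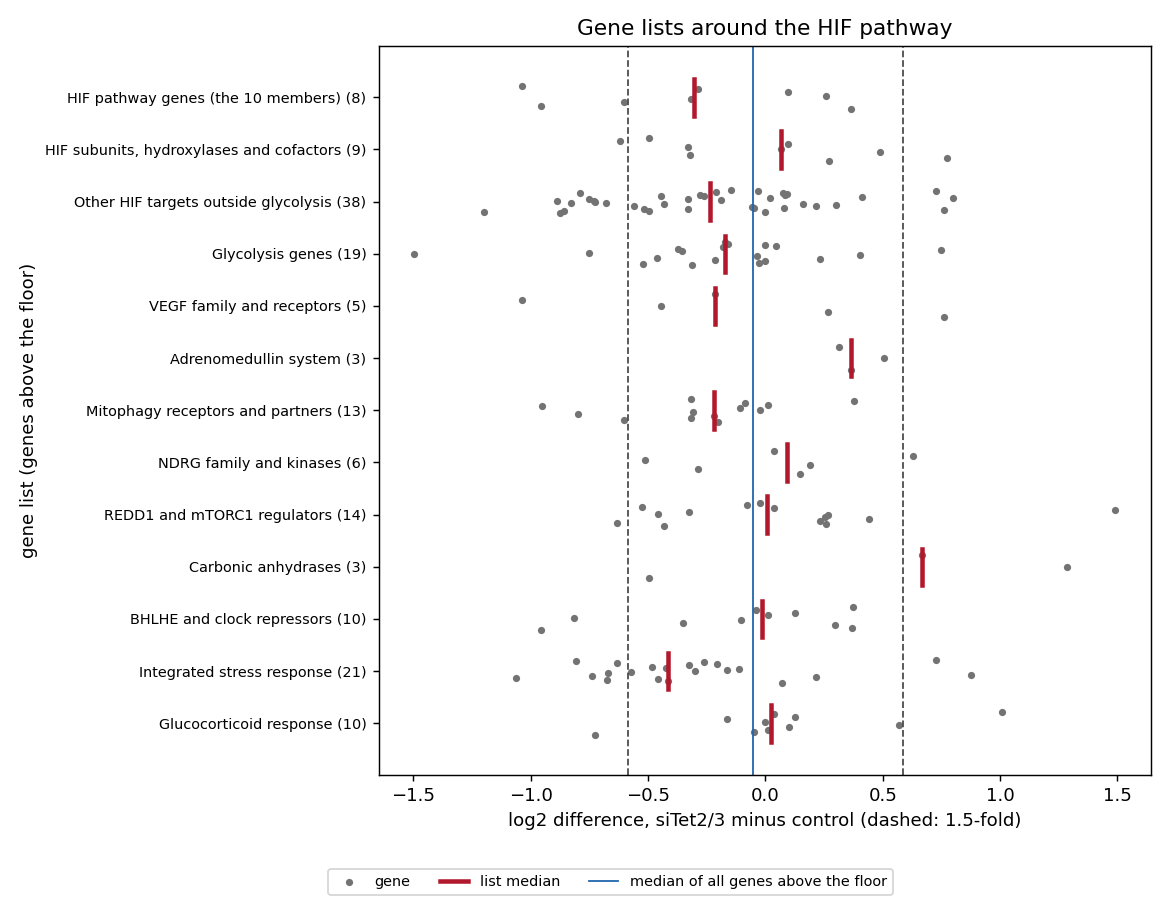
log2 difference between the siTet2/3 and the control array (x axis) of the genes above the floor in all 13 pathway lists examined (grey points; numbers of genes in brackets), with each list's median (red bar), the median of all genes above the floor (blue line) and 1.5-fold limits (dashed). The medians range from -0.41 for the integrated stress response to 0.67 for carbonic anhydrases, a list of 3 genes.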

How the data were processed

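Per the labels' protocols, total RNA of 2 cultures was labelled by a whole-transcript kit. Each culture had 1 array. The authors deposited log2 signals per probe set; RMA and the Transcriptome Analysis Console are named in the submitters' processing notes, with no versions, and genome build and annotation were not given in the sources used here. The columns had medians of 4.90 (siTet2/3) and 4.85 (control). Such scaling hides differences in total RNA, and further transformation of the scale is possible, so folds are those of the deposited scale. Of 23188 gene probes, 15049 had 1 gene symbol in the platform annotation, 0 several and 8139 none. Probes of a gene were averaged; the 10 HIF pathway genes had 1 probe each. There were 0 columns of unknown samples.

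Per gene, control was subtracted from siTet2/3 on the log2 scale in Python 3.11.15, pandas 2.3.3 and statsmodels 0.14.6. A gene was counted if its higher value passed the floor of 5.04 and its difference reached 1.5-fold; with 1 value under the floor, the fold is a bound against the floor. The robust SD is the scaled median absolute deviation of the 200 nearest genes in level. The functions were checked on simulated data with a smaller spread than the robust SD of 0.45 found here over all genes above the floor. That check gives no rate of false calls for these arrays. The genes and lists were chosen with earlier results of these data known. From each list up to 3 genes per direction past 1.5-fold, or the largest difference, were named, with all HIF core and family genes open to naming, and others were named after their values were seen. Alternatives were no floor, 2 higher floors, values raised to the floor, centring, a loess trend (span 0.3), the brightest probe, a 2-fold limit and means. With 1 array per group no test was made, and the number of arrays limits the precision.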

Additional observations from a re-analysis of the deposited data

How the results depend on the processing

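No paired analysis was possible because each group had 1 array. The 8 HIF pathway genes above the floor had 1 probe each and passed the floor on both arrays. Changes of the floor or of the probe choice therefore could not alter their differences, and only centring and the loess trend could. Under centring and the loess trend each gene kept its direction. The differences ranged from -1.04 to -0.98 for Vegfa, -0.95 to -0.90 for Bhlhe40, -0.60 to -0.53 for Bnip3 and 0.36 to 0.44 for Adm. The count of 3 lower genes was 2 after centring, after removal of a loess trend or with the floor from negative controls, and 1 at 2-fold. Over all genes the counts lower and higher were 1070 and 699, against 1690 and 1684 with no floor, 453 and 248 with the floor from negative controls and 247 and 147 at 2-fold; after centring they were 899 and 845. For the wider HIF target list 6 (24.0%) were lower and 0 higher with the floor from negative controls, beside 11.0% and 6.01% of all genes, and 1 (2.63%) and 0 at 2-fold, beside 3.05% and 1.81%. In these cases fewer or more genes were counted by construction. With means in place of medians the 8 genes gave -0.31 and the wider list -0.24. The median of the HIF subunit list was 0.07, but -0.32 with the floor from negative controls, which left 7 genes. Without replicates, no value here measures the spread between cultures.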

Other observations

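Among genes above the floor with a single promoter window, 4174 held either form of the HIF core motif and 2401 held neither. The share at least 1.5-fold lower on the siTet2/3 array was 13.1% with the motif and 13.4% without it, and the share at least 1.5-fold higher was 8% with it and 9.91% without it. The median differences were -0.06 and -0.03 log2 units. These are descriptions of 2 arrays, and the windows cover only 300 bases.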
